A study of Mus musculus with 6 samples.

Results

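The Egr, Nr4a and Ier immediate early genes described here are Egr1, Egr2, Egr3, Nr4a1, Nr4a2, Nr4a3, Ier2, Ier3, Ier5 and Nab2, taken by gene symbol. All 10 were found among the 17464 symbols of each library, and all 10 were among the 11516 genes that reached 1 FPKM in at least 3 libraries and were tested. FPKM is a fragment number scaled by gene length and by library total. RNA came from mammary gland of wild-type C57BL/6 mice at postnatal day 45, in 3 samples given recombinant mouse CXCL14, a chemokine, and 3 untreated samples. The sources used here state no dose, route, duration or vehicle. They also do not say whether each sample is a separate mouse, so the p-values measure no more than sample-to-sample spread, part of which may be technical.

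Immediate early genes are transcribed within minutes of a signal, without new protein synthesis, and their transcripts are short-lived. Signals that reach ERK kinases act through ELK factors and SRF at CArG boxes, and signals that raise cyclic AMP or calcium act through CREB at cyclic AMP response elements (CRE). EGR proteins are zinc finger transcription factors that bind GC-rich sites, and NAB2 is a co-repressor that binds EGR proteins and limits their activity. NR4A proteins are orphan nuclear receptors. In lymphocytes both families are induced by antigen receptor signalling, and Nr4a1 is widely used as a reporter of it.

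Promoter sequences are shown for the Nr4a genes, the members with an unadjusted p under 0.05, and for Egr2, as a member with another set of sites. Of the 10 genes, 7 had a promoter of 300 bases (250 before the start site and 50 from it) in the RefSeq table of GRCm38.p6, in 11 windows, and Egr1, Egr3 and Ier2 had none there. Each is written 5′ to 3′ on the strand of its gene, with the CRE core TGACG, on either strand, and the CArG box in capitals.
Nr4a1, chr15:101266596-101266895, + strand: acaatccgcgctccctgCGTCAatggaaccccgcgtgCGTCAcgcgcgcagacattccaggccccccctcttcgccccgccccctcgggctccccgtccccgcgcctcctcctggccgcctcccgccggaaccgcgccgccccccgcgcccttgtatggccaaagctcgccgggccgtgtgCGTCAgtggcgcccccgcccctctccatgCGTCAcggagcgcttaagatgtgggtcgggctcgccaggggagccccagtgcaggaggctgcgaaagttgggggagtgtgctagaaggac
Nr4a2, chr2:57123954-57124253, - strand: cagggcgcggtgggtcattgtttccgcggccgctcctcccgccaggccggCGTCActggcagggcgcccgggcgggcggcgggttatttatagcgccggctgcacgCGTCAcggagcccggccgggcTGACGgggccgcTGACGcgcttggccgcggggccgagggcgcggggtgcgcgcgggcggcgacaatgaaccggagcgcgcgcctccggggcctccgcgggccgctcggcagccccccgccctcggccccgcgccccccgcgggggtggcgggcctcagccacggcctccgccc
Nr4a3, chr4:48045055-48045354, + strand: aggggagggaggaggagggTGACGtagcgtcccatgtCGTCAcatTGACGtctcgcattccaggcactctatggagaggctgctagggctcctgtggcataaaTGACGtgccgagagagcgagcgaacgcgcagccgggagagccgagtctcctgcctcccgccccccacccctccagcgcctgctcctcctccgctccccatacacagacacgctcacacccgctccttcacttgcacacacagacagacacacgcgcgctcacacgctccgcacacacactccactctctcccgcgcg
Egr2, chr10:67537619-67537918, + strand: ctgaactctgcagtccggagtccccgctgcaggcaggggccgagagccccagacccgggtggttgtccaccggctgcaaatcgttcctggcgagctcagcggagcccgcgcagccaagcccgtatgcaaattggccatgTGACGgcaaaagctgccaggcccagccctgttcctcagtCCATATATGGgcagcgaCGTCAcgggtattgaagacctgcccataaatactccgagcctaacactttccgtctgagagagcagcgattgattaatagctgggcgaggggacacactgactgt
Each of the 3 Nr4a windows held 4 CRE cores and no CArG box. Among all 32851 windows of this length, 20.8% held at least 1 CRE core and 0.231% held at least 4. Egr2 has 5 windows in the table, for different start sites, and the one printed was picked after its letters were seen. It held 2 CRE cores and 1 CArG box, a motif present in 1.63% of windows, and 2 of the other 4 windows overlap it and hold the same 2 cores. The EGR site GCGNGGGCG was found once in the Nr4a1 window and once in the Nr4a2 window, against 5.55% of all windows with at least 1. None of the 11 windows held the full CRE TGACGTCA (1.79% of all windows) or the NBRE AAAGGTCA (1.51%), the element to which NR4A proteins bind. All motifs were searched on both strands, and every full CRE also contains the CRE core. The windows of Ier3, Ier5 and Nab2 held none of the 5 motifs. A match describes letters in these windows and shows neither binding nor a cause.

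Libraries held between 15245844 and 16983203 reads, recovered from the steps of the FPKM values. The lowest number of reads behind any value of the 10 genes was 529, for Egr2, and intervals from read numbers cover counting error only. CXCL14 replicate 1 lay close to untreated replicate 1 across all genes: their mean squared difference in reads was 2.42 times that of counting noise, whereas for the other 14 pairs it was 25.7 to 98.9 times. Results are therefore given with all libraries, without CXCL14 replicate 1, and, for the intervals and the groups that do not overlap, without both libraries numbered 1. Dropping the CXCL14 library that is most like the controls widens differences by construction, so those values are no independent evidence. Markers of mammary gland were present, and so were those of lymphoid cells: 10 luminal epithelial markers summed to between 229 and 293 FPKM with CXCL14 and between 119 and 351 FPKM without, and 10 B-cell markers to between 1370 and 1641 FPKM with CXCL14 and between 1514 and 1666 FPKM without. The series title speaks of endothelial cells, but the labels give mammary gland, and 10 blood endothelial markers summed to 461, 900 and 1437 FPKM in CXCL14 replicates 1, 2 and 3 and to 441, 914 and 714 FPKM in untreated replicates 1, 2 and 3.

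All 10 genes had a positive log2 fold change for CXCL14 over untreated, between 0.08 for Nab2 and 0.70 for Nr4a1, with a median of 0.29. Over all tested genes the median was -0.06 and 37.2% were positive. None of the 10 passed the test: limma-trend called 0 of 10, and 0 of 11516 genes in all (0% higher and 0% lower). At an unadjusted p under 0.05 there were 3 of the 10, Nr4a1, Nr4a2 and Nr4a3, against 7.77% of all tested genes and 3.41% with a positive fold change, and voom on the recovered reads also called 0. All 3 CXCL14 libraries were above all 3 untreated libraries for 3 of the 10, Nr4a1, Nr4a2 and Ier5, against 4.74% of all tested genes. With CXCL14 replicate 1 left out, 3 of the 10 were called higher, Nr4a1, Nr4a3 and Egr3, against 2.16% of all tested genes called higher and 3.02% called lower. In that fit all 10 were again positive, against 36.7% of all genes, and for 6 of the 10 the groups did not overlap, against 13.4%. Without both libraries numbered 1, 0 of the 10 were called, against 0.122% called higher among all genes, and the same count of 6 did not overlap, against 15.5%. In bulk tissue, more cells of a type and more RNA per cell cannot be told apart.

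**Figure D1:**
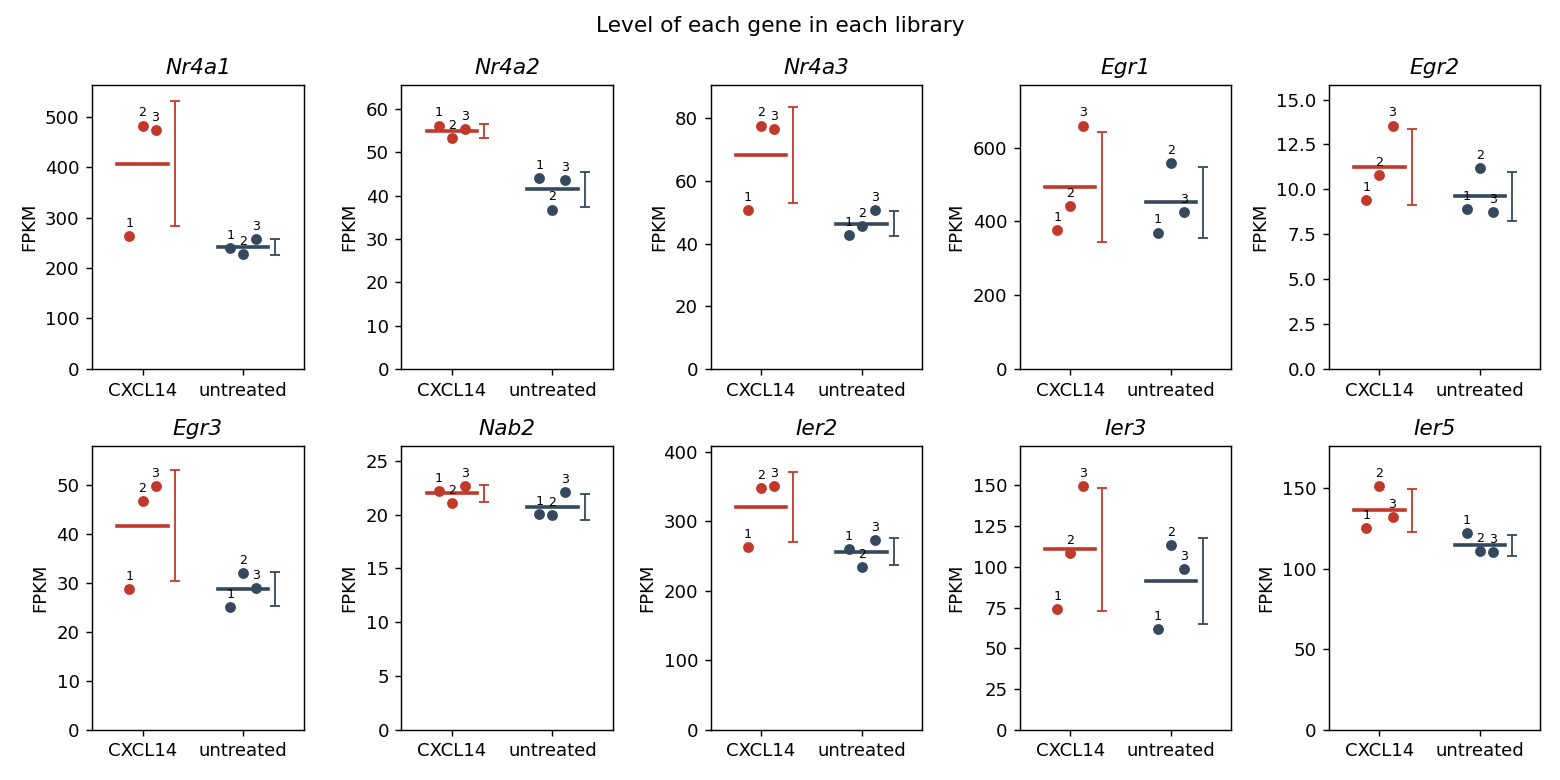
FPKM of each gene (vertical axis, from 0) in each library, with CXCL14 libraries on the left and untreated libraries on the right of each panel. Points carry the replicate number, horizontal bars are group means and error bars are SDs over 3 libraries. CXCL14 replicates 2 and 3 lie above all untreated libraries for Nr4a1 and Nr4a3, while CXCL14 replicate 1 lies close to them, and for Nr4a2 all 3 CXCL14 libraries lie above.

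With all libraries, Nr4a1 and Nr4a3 had the largest fold changes of the 10, and Nr4a2 the most even levels among CXCL14 libraries. Nr4a1, which encodes NUR77, was at 264, 483 and 474 FPKM in CXCL14 replicates 1, 2 and 3, against 239, 228 and 258 FPKM in untreated replicates 1, 2 and 3. CXCL14 replicates 2 and 3 were far above the other 4 libraries, and replicate 1 was only just above the highest untreated library. Among tested genes ordered by FPKM, Nr4a1 ranked 181, 118 and 117 in the CXCL14 libraries and 198, 198 and 191 in the untreated ones. Its log2 fold change was 0.70 (SE 0.24, adjusted p = 0.573 by limma-trend). It rose when CXCL14 replicate 1 was left out, with a log2 fold change of 0.98 (SE 0.10, adjusted p = 0.0251 by limma-trend). That fit's means were 1.98 times apart on the FPKM scale, against 1.68 times with all libraries.

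Nr4a2, which encodes NURR1, was at 56.2, 53.2 and 55.3 FPKM in CXCL14 replicates 1, 2 and 3, against 44.0, 36.8 and 43.6 FPKM in untreated replicates 1, 2 and 3. The groups did not overlap, and here CXCL14 replicate 1 was the highest of the 6 libraries, which held for none of the other 9 genes. The CXCL14 libraries varied little, with a coefficient of variation of 2.77%, against 9.77% in the untreated libraries. The log2 fold change was 0.40 (SE 0.10, adjusted p = 0.573 by limma-trend), the smallest unadjusted p of the 10 (0.00573 from limma-trend across all genes). Leaving out CXCL14 replicate 1 gave 0.39 (SE 0.11, adjusted p = 0.0930 by limma-trend). Nr4a2 thus had nearly the same fold change in both fits, in contrast to Nr4a1.

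Nr4a3, which encodes NOR1, was at 50.6, 77.7 and 76.7 FPKM in CXCL14 replicates 1, 2 and 3, against 42.8, 45.7 and 50.7 FPKM in untreated replicates 1, 2 and 3. CXCL14 replicate 1 lay just below the highest untreated library, and the other CXCL14 libraries lay above all untreated ones. Its log2 fold change was 0.53 (SE 0.18, adjusted p = 0.573 by limma-trend), and without CXCL14 replicate 1 it was 0.73 (SE 0.10, adjusted p = 0.0334 by limma-trend). The family's proportions differed among the CXCL14 libraries. The ratio of Nr4a1 to Nr4a2 in FPKM was 4.70, 9.07 and 8.57 in CXCL14 replicates 1, 2 and 3, against 5.44, 6.20 and 5.93 in untreated replicates 1, 2 and 3. CXCL14 replicate 1 had the lowest ratio of all 6 libraries and the other 2 CXCL14 libraries the highest. The ratio of Nr4a1 to Nr4a3 varied less, between 5.21 and 6.22 in CXCL14 libraries and between 4.99 and 5.60 in untreated libraries. CRE cores are marked above in the window of each of the 3 genes, and whether those sites were in use was not measured.

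**Figure D2:**
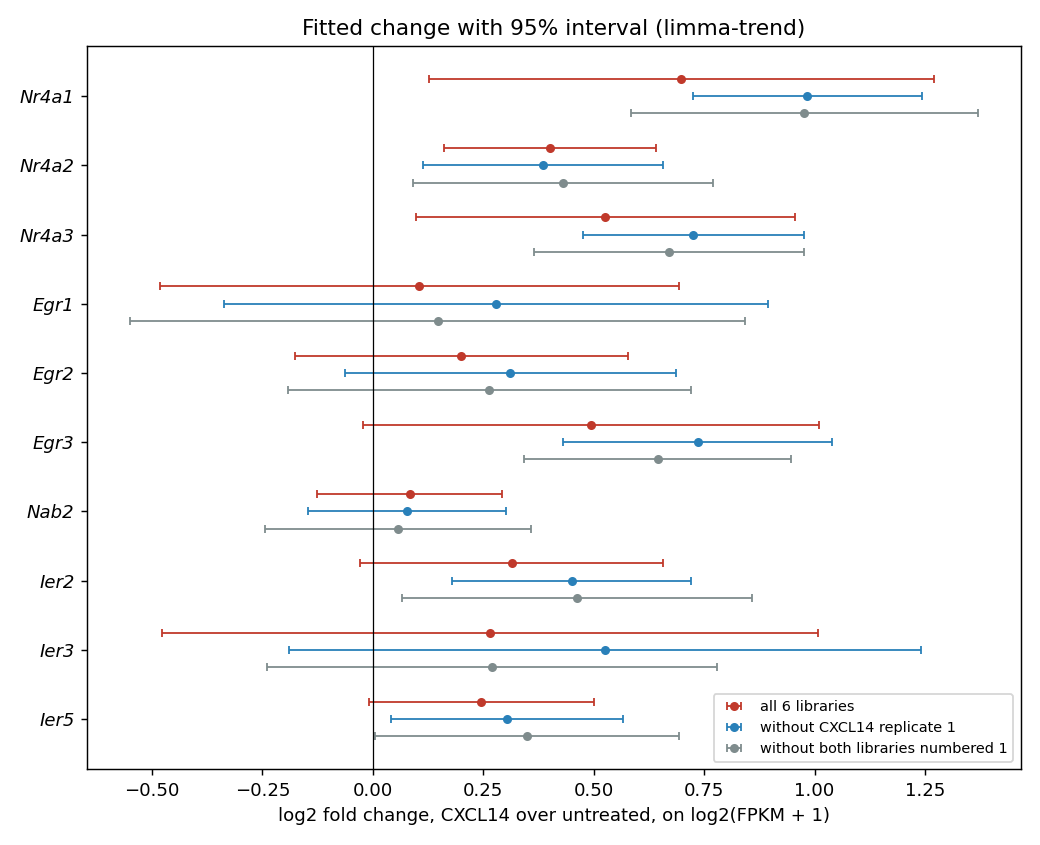
Fitted log2 fold change of CXCL14 over untreated on log2(FPKM + 1) for each gene (horizontal axis), with 95% intervals from limma-trend, from all 6 libraries (red), without CXCL14 replicate 1 (blue) and without both libraries numbered 1 (grey). With all libraries the intervals of Nr4a1, Nr4a2 and Nr4a3 lie above 0 before adjustment over all genes, and Egr1, Egr2, Ier3 and Nab2 have intervals that cover 0 in each of the 3 fits.

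Of the Egr family, Egr3 had the largest fold change and Egr1 the smallest. Egr3, which in T cells acts with Egr2 to restrain activation, was at 28.7, 46.6 and 49.7 FPKM in CXCL14 replicates 1, 2 and 3, against 25.0, 31.9 and 29.0 FPKM in untreated replicates 1, 2 and 3. CXCL14 replicates 2 and 3 were above every untreated library and replicate 1 lay within the untreated range. The log2 fold change was 0.49 (SE 0.22, adjusted p = 0.573 by limma-trend), and without CXCL14 replicate 1 Egr3 rose by 0.74 (SE 0.12, adjusted p = 0.0428 by limma-trend).

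Egr1, which had the highest mean FPKM of the 10 in both groups, was at 376, 442 and 660 FPKM in CXCL14 replicates 1, 2 and 3, against 370, 558 and 427 FPKM in untreated replicates 1, 2 and 3. The groups overlapped widely, and untreated replicate 2 was above 2 of the 3 CXCL14 libraries. Its log2 fold change was 0.11 (SE 0.25, adjusted p = 0.871 by limma-trend), with a 95% interval between -0.48 and 0.69. The direction did not hold: without CXCL14 replicate 3 it was -0.13 and without untreated replicate 1 it was -0.03, while it was 0.28 without CXCL14 replicate 1, 0.27 without untreated replicate 2 and 0.16 without CXCL14 replicate 2. Egr2, which is also needed for myelination by Schwann cells, was the lowest of the 10, at 9.39, 10.8 and 13.6 FPKM in CXCL14 replicates 1, 2 and 3, against 8.89, 11.2 and 8.75 FPKM in untreated replicates 1, 2 and 3. Its groups also overlapped, with a log2 fold change of 0.20 (SE 0.16, adjusted p = 0.648 by limma-trend). It was 0.07 without CXCL14 replicate 3, 0.31 without CXCL14 replicate 1 and 0.30 without untreated replicate 2.

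Egr1 and Egr2 kept similar proportions in every library, with an FPKM ratio between 40.0 and 48.7 with CXCL14 and between 41.6 and 49.8 without. Egr1 and Egr3 did not: their ratio was 13.1, 9.49 and 13.3 in CXCL14 replicates 1, 2 and 3, and 14.8, 17.5 and 14.7 in untreated replicates 1, 2 and 3, so that all 3 CXCL14 libraries had a lower ratio than all untreated ones. The ratio of Nr4a1 to Egr1 was likewise higher in each CXCL14 library, at 0.703, 1.09 and 0.718, against 0.647, 0.409 and 0.605 in the untreated libraries. For Nr4a1 to Egr1 the margin was narrow between the libraries numbered 1. The ratio of Egr2 to Egr3 overlapped between the groups, with 0.327 in CXCL14 replicate 1 and 0.302 in untreated replicate 3. These ratios were picked from several looked at after the values were seen. How often ratios of other gene pairs separate the groups was not computed, and these carry no test.

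Nab2 hardly varied. It was at 22.2, 21.1 and 22.6 FPKM in CXCL14 replicates 1, 2 and 3, against 20.1, 19.9 and 22.1 FPKM in untreated replicates 1, 2 and 3, and the groups overlapped. Its highest library was 1.14 times its lowest, the narrowest range of the 10, and its fitted log2 difference was 0.08 (SE 0.09, adjusted p = 0.717 by limma-trend), with a 95% interval between -0.13 and 0.29. In GENCODE M21 Nab2 overlaps Stat6 and Nemp1 on the opposite strand. Without knowledge of whether reads were counted by strand, reads from these genes cannot be told apart, so the value of Nab2 is uncertain. Stat6, a transcription factor of interleukin signalling, differed by -0.20 on the log2 scale (SE 0.10, adjusted p = 0.574 by limma-trend). Nab1, the other NAB co-repressor, had one of -0.02 (SE 0.12, adjusted p = 0.959 by limma-trend).

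The Ier genes were chosen by name and are not one protein family. Ier2, a nuclear protein induced by growth factors, was at 263, 348 and 350 FPKM in CXCL14 replicates 1, 2 and 3, against 260, 235 and 273 FPKM in untreated replicates 1, 2 and 3. As with Nr4a3, CXCL14 replicates 2 and 3 stood above the rest and replicate 1 lay within the untreated range. The log2 fold change was 0.31 (SE 0.14, adjusted p = 0.573 by limma-trend), and without CXCL14 replicate 1 it was 0.45 (SE 0.11, adjusted p = 0.0704 by limma-trend), which did not pass.

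Ier5, which works with the heat shock factor HSF1, was at 125, 151 and 132 FPKM in CXCL14 replicates 1, 2 and 3, against 122, 111 and 110 FPKM in untreated replicates 1, 2 and 3. The groups did not overlap, by a narrow margin between the libraries numbered 1, and the log2 fold change was 0.25 (SE 0.11, adjusted p = 0.573 by limma-trend). Ier3, a stress-induced regulator of cell survival, was at 74.0, 109 and 150 FPKM in CXCL14 replicates 1, 2 and 3, against 61.7, 113 and 98.5 FPKM in untreated replicates 1, 2 and 3. It had the widest spread of the 10, with its highest library 2.42 times its lowest, and the lowest libraries of both groups were those numbered 1. Its log2 fold change was 0.27 (SE 0.31, adjusted p = 0.742 by limma-trend), smaller than its standard error. Single libraries decided its size: it was 0.02 without CXCL14 replicate 3, 0.01 without untreated replicate 1, 0.44 without untreated replicate 2 and 0.52 without CXCL14 replicate 1.

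The order of levels was much the same in both groups. By mean FPKM (SD, n = 3 each), Egr1 led with 493 ± 149 with CXCL14 and 452 ± 96.3 without. The gap to the next gene was within 1 SD of Egr1 with CXCL14 and beyond it without. Next were Nr4a1, at 407 ± 124 with CXCL14 and 242 ± 15.4 without, and Ier2, at 320 ± 49.7 with CXCL14 and 256 ± 19.4 without. With CXCL14 Nr4a1 was above Ier2 and without it below, in both cases by less than the SD of Nr4a1 or Ier2. Ier5 and Ier3 followed, with 136 ± 13.4 and 111 ± 37.8 FPKM with CXCL14 and with 114 ± 6.46 and 91.1 ± 26.5 FPKM without, and these neighbours did not differ beyond the SD of Ier3. Nr4a3 and Nr4a2 were next, at 68.3 ± 15.3 and 54.9 ± 1.52 FPKM with CXCL14 and at 46.4 ± 4.03 and 41.5 ± 4.05 FPKM without, a gap within 1 SD of Nr4a3 with CXCL14 and barely larger than the SDs without. Below them lay Egr3, Nab2 and Egr2, at 41.7 ± 11.3, 22.0 ± 0.788 and 11.2 ± 2.12 FPKM with CXCL14 and at 28.6 ± 3.48, 20.7 ± 1.20 and 9.61 ± 1.37 FPKM without, each apart from the next by more than its own SD. Together the 10 genes took 0.398%, 0.575% and 0.639% of recovered reads in CXCL14 replicates 1, 2 and 3, against 0.369%, 0.424% and 0.405% in untreated replicates 1, 2 and 3.

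**Figure D3:**
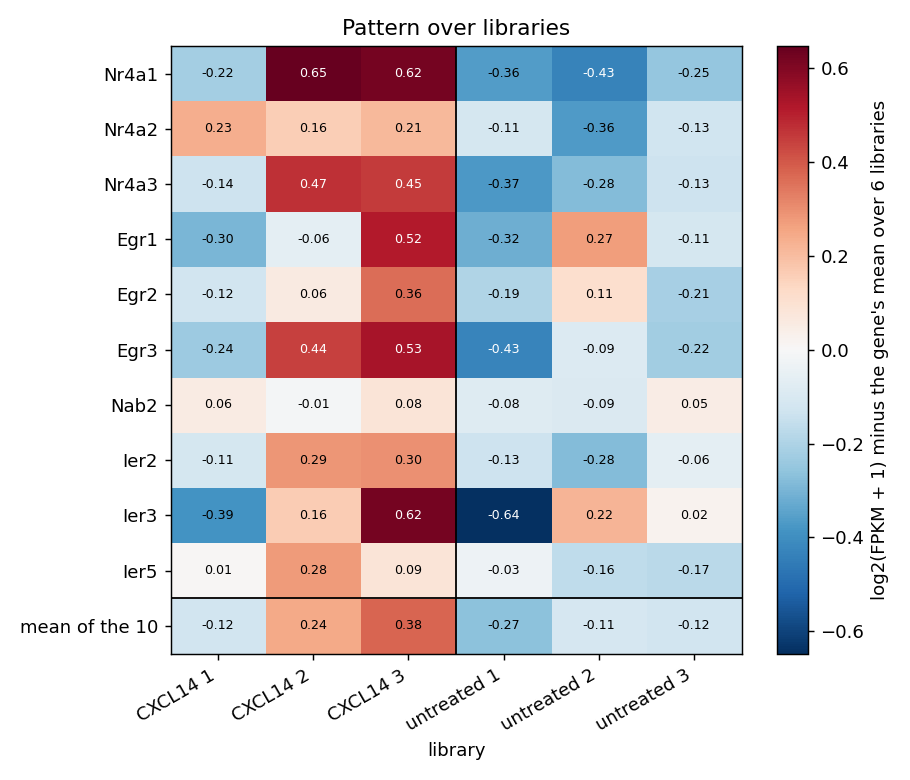
Departure of log2(FPKM + 1) from each gene's own mean over the 6 libraries (colour and printed value), with genes in rows and libraries in columns, CXCL14 on the left. The bottom row is the mean over the 10 genes, which is 0.24 and 0.38 in CXCL14 replicates 2 and 3 and below 0 in the other 4 libraries.

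The genes did not share one pattern over the libraries. CXCL14 replicates 2 and 3 were the highest 2 libraries for 5 of the 10, Nr4a1, Nr4a3, Egr3, Ier2 and Ier5, against 12.4% of all tested genes. Egr1, Egr2 and Ier3 instead had CXCL14 replicate 3 first and untreated replicate 2 second. Taken as the root mean square difference of centred log2 values over the 6 libraries, the closest pair was Egr3 with Nr4a3, at 0.11, and the farthest was Nr4a2 with Ier3, at 0.45. The same measure was taken between the mean pattern of the 10 and 7836 other genes averaging 5 FPKM or more, whose median was 0.31. The closest 6 were Rheb at 0.032, Slc25a25 at 0.043, Tgoln1 at 0.050, Bcl3 at 0.051, Btg3 at 0.051 and Sesn2 at 0.053. The 10 genes themselves lay farther from their mean pattern, between 0.099 for Ier2 and 0.260 for Ier3. Closeness to that average is thus not closeness to any single gene of the 10. These likenesses describe 6 libraries and carry no test.

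Each of the 10 genes was higher in CXCL14 replicate 1 than in untreated replicate 1, the libraries that were otherwise close to each other, whereas 49.6% of all tested genes were. The largest ratio of FPKM was that of Nr4a2, 1.28 (95% counting interval between 1.21 and 1.34, exact binomial, from 3392 reads in CXCL14 replicate 1 and 2713 in untreated replicate 1). Among 5883 genes with at least as many reads in the pair as Egr2, which had 1077, this ratio was at percentile 99.8. Ier3 followed with 1.20 (percentile 99.4), Nr4a3 with 1.18 (percentile 99.2) and Egr3 with 1.15 (percentile 98.0). Nab2 and Nr4a1 were at 1.11 and 1.10, near the 95th percentile of these genes, which was 1.11. Egr2, Ier5, Egr1 and Ier2 had ratios between 1.01 and 1.06, with counting intervals that include 1. The same direction was seen in 16 of 20 other immediate early genes, 8 of 10 heat shock chaperones, 10 of 15 Klf, dual phosphatase and mRNA-decay feedback genes, 6 of 9 AP-1 genes, 10 of 16 upstream pathway genes, 8 of 15 genes of antigen receptor signalling and 3 of 7 relatives and partners. This compares a pair of libraries and not the conditions, and it was looked at after the values were seen.

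**Figure D4:**
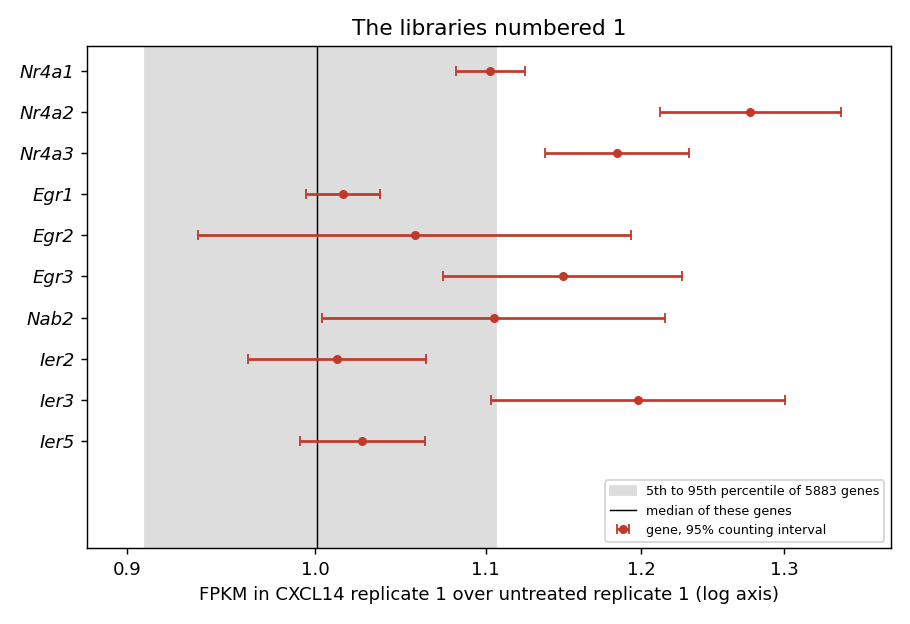
Ratio of FPKM in CXCL14 replicate 1 to untreated replicate 1 for each gene (horizontal log axis), with 95% exact binomial intervals that cover counting error only. The grey band spans the 5th to 95th percentile, 0.909 to 1.11, of 5883 genes with comparable reads, and Nr4a2, Nr4a3, Egr3 and Ier3 lie to its right.

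Other immediate early genes were set beside these, in lists chosen by name. All 9 AP-1 genes, which encode FOS, JUN and related factors, were higher with CXCL14 by their fitted value (median log2 fold change 0.39), but 0 passed. Fosb was at 391, 744 and 804 FPKM in CXCL14 replicates 1, 2 and 3, against 385, 375 and 301 FPKM in untreated replicates 1, 2 and 3, or 0.81 as log2 fold change (SE 0.28, adjusted p = 0.573 by limma-trend). Fosl2 had 0.56 (SE 0.21) on the same scale, and Fos, the best known of them, had 0.22 (SE 0.17). Like Egr1, Fos overlapped between the groups. The count called higher was 3 of the 9 when CXCL14 replicate 1 was left out, with a median of 0.49. In that fit 2.16% of all tested genes were called higher and 3.02% lower, which is the background for each list's count of calls without that library.

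Of 15 Klf, dual phosphatase and mRNA-decay feedback genes, 13 were positive and 2 negative, with a median of 0.22, and 0 passed. Dusp4, a phosphatase that inactivates ERK-type kinases, stood at 0.43 (SE 0.11, adjusted p = 0.573 by limma-trend), and Zfp36l2, which promotes decay of AU-rich transcripts, one of -0.35 (SE 0.11, adjusted p = 0.573 by limma-trend). With that library left out, 3 of the 15 were called higher and 0 lower. Among 20 other immediate early genes, 17 had a positive value, the median was 0.20 and 0 passed, and 4 were called higher without CXCL14 replicate 1. Gadd45b, a stress-induced signalling protein, had 0.65 (SE 0.18), and the clock gene Per1 had 0.37 (SE 0.12). In the fit with all libraries the median of the Egr, Nr4a and Ier genes therefore lay between those of the AP-1 and feedback lists, and no difference between lists was tested.

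In sign and median, the upstream genes were close to the background in the fit with all libraries. Of 16 genes of the ERK, SRF and CREB pathways 6 were positive and 10 negative, or 37.5% positive against 37.2% of all tested genes, with a median of -0.10 against -0.06, and 0 passed. Mef2d, a transcription factor that acts at the Nr4a1 promoter in T cells, differed by 0.53 (SE 0.18) on the log2 scale, and Rps6ka1, which encodes the ERK-activated kinase RSK1, had -0.55 (SE 0.20), both with adjusted p = 0.573 by limma-trend. In the fit that leaves out CXCL14 replicate 1, 7 of the 16 were positive and 9 negative, with 1 called higher and 2 called lower. Transcript levels of these genes do not measure the activity of their proteins. Of 7 tested genes listed as relatives and partners of the 10 genes, 3 were positive, with a median of -0.02 and 0 passing. Csrnp2 and Csrnp1, related to each other as nuclear proteins, had log2 fold changes of 0.69 (SE 0.26) and 0.34 (SE 0.15). No kinship of these with the 10 genes is shown here, and the other tested genes of the list lay between -0.16 and 0.11. When CXCL14 replicate 1 was left out, 4 of the 7 were positive and Csrnp2 alone was called higher. Csrnp1 then had 0.50 (SE 0.10, adjusted p = 0.0533 by limma-trend), which did not pass. Egr4 was below 1 FPKM in every library and was not tested.

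**Figure D5:**
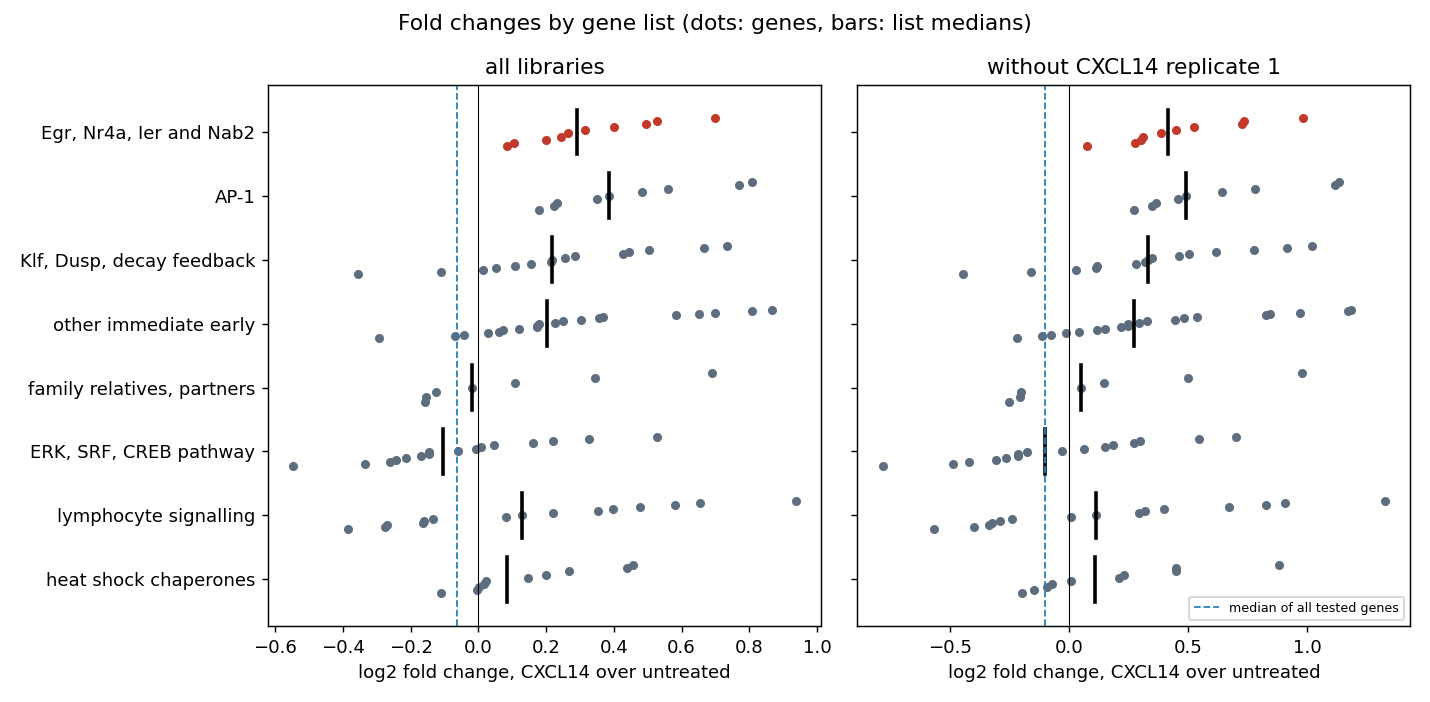
Log2 fold changes of CXCL14 over untreated (horizontal axis) for the genes of each list (dots, with list medians as black bars), with all libraries on the left and without CXCL14 replicate 1 on the right. The dashed line is the median of all tested genes, and all 10 dots of the top list lie to the right of 0 in both panels.

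Several cell type markers moved with CXCL14 replicates 2 and 3, as did several of the 10 genes. The 8 neutrophil markers summed to 36.5, 279 and 379 FPKM in CXCL14 replicates 1, 2 and 3, against 43.0, 22.9 and 9.76 FPKM in untreated replicates 1, 2 and 3, with Cxcr2 below 1 FPKM in every library, Camp listed at 0 in at least 1, and 7 of 7 tested markers positive. The 6 genes of milk secretion summed to 9.89, 387 and 598 FPKM in CXCL14 replicates 1, 2 and 3, against 7.10, 14.2 and 9.01 FPKM in untreated replicates 1, 2 and 3, with 4 of 4 tested genes positive. These markers were high in the libraries in which Nr4a1, Nr4a3 and Egr3 were high. T-cell markers went the other way, with 9 of 10 found, 9 of 9 negative, and sums of 888, 588 and 490 FPKM in CXCL14 replicates 1, 2 and 3, against 958, 748 and 973 FPKM in untreated replicates 1, 2 and 3. Dendritic cell markers, with 7 of 7 found, Xcr1 below 1 FPKM in every library and 5 of 5 tested negative, summed to 90.0, 14.5 and 21.9 FPKM in CXCL14 replicates 1, 2 and 3, against 89.9, 78.9 and 61.6 FPKM in untreated replicates 1, 2 and 3. Macrophage markers, with 8 of 10 negative, summed to 343, 120 and 174 FPKM in CXCL14 replicates 1, 2 and 3, against 344, 262 and 106 FPKM in untreated replicates 1, 2 and 3. Endothelial markers were 10 of 10 positive, against 37.2% of all tested genes, and the groups overlapped for each of them. With all libraries their median log2 fold change was 0.28, against 0.29 for the Egr, Nr4a and Ier genes. Without CXCL14 replicate 1 these medians were 0.70 and 0.42. Of the white adipocyte markers, 6 of 7 tested were positive, with Lep below 1 FPKM in every library and groups that overlapped for each tested marker. Both marker sums were lowest in the libraries numbered 1, as were Egr1, Egr3 and Ier3. The 8 adipocyte markers summed to 1012, 1893 and 3105 FPKM in CXCL14 replicates 1, 2 and 3, against 941, 1816 and 1956 FPKM in untreated replicates 1, 2 and 3. The part of these cell types in the levels of the 10 genes was not tested.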

How the data were processed

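RNA was extracted with Trizol from frozen gland and sequenced as NEBNext Ultra libraries, per the labels' protocols. The authors deposited FPKM values per gene symbol and library. Tools named in the submitters' processing notes, in no stated role, are HTSeq 0.6.0, HISAT2 2 and Bowtie2 2.2.3, and the build there is mm8. No annotation, gene length or strand setting is given.

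Genes with at least 1 FPKM in at least 3 libraries (11516 of 17464) were tested with limma-trend (limma 3.58.1, R 4.3.3) on log2(FPKM + 1), with Benjamini-Hochberg adjustment over all tested genes and calls at an adjusted p under 0.05. Fold changes are on that scale and understate changes of low genes, and SEs are the moderated ones. Within a gene, FPKM values were whole multiples of a step per library, which gave whole reads within 0.004 for all 16721 genes above 0 in at least 2 libraries, up to a common factor per gene. These reads served for depth, counting intervals and voom with TMM as an alternative. Code was tested on simulated data.

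The 10 genes and the lists were chosen with earlier results of these data known. Named from each list were the 2 genes with the smallest p, plus Fos, Egr4, Nab1, Hspa1a and, after its values were seen, Cd5. Likeness was ranked over genes averaging 5 FPKM or more, skipping predicted names. Promoters come from RefSeq GRCm38.p6, a build other than the authors', so no coordinates were joined to the expression values. Alternatives were another pseudocount, other filters, scalings, voom, a replicate block and libraries left out.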

Additional observations from a re-analysis of the deposited data

How the results depend on the processing

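Without CXCL14 replicate 1, limma-trend called 597 genes, 3 of the 10 and 17 of 92 genes in the comparison lists (14 higher and 3 lower), where all libraries gave 0 for each. Leaving out single libraries thus gave between 0 and 597 genes, between 0 and 3 of the 10, and between 0 and 17 of the comparison genes, with 0 for the other 5 libraries left out. Without both libraries numbered 1, 15 genes were called, 0 of them among the 10. The other alternatives, with a pseudocount of 0.1, no filter, a filter at 5 FPKM, median-ratio or upper-quartile scaling and voom, called 0 genes. The log2 fold change of Egr1 reversed without CXCL14 replicate 3 (-0.13) and without untreated replicate 1 (-0.03), lay between -0.13 and 0.28 when single libraries were left out, and no other gene of the 10 changed direction under the 14 alternatives. The median over the 10 genes lay between 0.25 and 0.42 when single libraries were left out, at 0.38 with median-ratio scaling and at 0.37 with voom. The median over all tested genes moved from -0.06 to 0.012 with median-ratio scaling and to 0.006 with voom. The background of 37.2% positive genes therefore holds for FPKM without further scaling. The replicate block also called 0 genes and 0 of the 10. The libraries numbered 1 deviated together, with a correlation of 0.69, but those numbered 2 and 3 did not (-0.30 and 0.06), so the numbers were not taken as pairs, and CXCL14 replicates 2 and 3 correlated best with untreated replicates 3 and 2 (0.60 and 0.56). The cause of these dependences was not tested.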

Other observations

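Genes that follow recent antigen receptor signalling in lymphocytes, where Nr4a and Egr genes are known to be induced, split by gene. Of 15 tested, 9 were higher and 6 lower with CXCL14 by their fitted values (median log2 fold change 0.13), and limma-trend called 0. Irf4, a transcription factor whose level follows receptor signal strength, was at 63.7, 148 and 143 FPKM in CXCL14 replicates 1, 2 and 3, against 56.6, 62.1 and 53.2 FPKM in untreated replicates 1, 2 and 3, which is 0.94 on the log2 scale (SE 0.32, adjusted p = 0.573 by limma-trend). Cd83, a surface protein of activated B cells and mature dendritic cells, had 0.66 (SE 0.23, adjusted p = 0.573 by limma-trend). With CXCL14 replicate 1 left out, Irf4 rose by 1.33 (adjusted p = 0.0220 by limma-trend) and Cd83 by 0.91 (adjusted p = 0.0420 by limma-trend). Cd5 went the other way, with -0.57 (adjusted p = 0.0447 by limma-trend), and was the only gene of the 15 called lower. By sign 9 were again positive and 6 negative. The groups did not overlap for 5 higher and 5 lower, against 1545 higher and 4023 lower of all 11516 tested genes. In that fit 4 of 5 tested dendritic cell markers were called lower, and the part of these cells in the level of Cd83 was not tested.

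Of the heat shock chaperones, whose main activator HSF1 works with Ier5, 8 of 10 had a positive log2 fold change, against 37.2% of all tested genes. Some of these values were near 0, the smallest at 0.002. Without CXCL14 replicate 1, 6 of 10 were positive, against 36.7%, and 6 of 10 also without both libraries numbered 1. With all libraries, the groups did not overlap for 2 of the 10, Hsph1 and Hsp90aa1, both higher with CXCL14, against 4.74% of all tested genes. The 10 genes summed to 2501, 2537 and 2531 FPKM in CXCL14 replicates 1, 2 and 3, against 2473, 2424 and 2394 FPKM in untreated replicates 1, 2 and 3. These sums did not overlap either, by a narrow margin between the libraries numbered 1, and no share over all genes belongs to a sum. Hspa1a was at 192, 169 and 152 FPKM in CXCL14 replicates 1, 2 and 3, against 177, 191 and 141 FPKM in untreated replicates 1, 2 and 3, a log2 difference of 0.02 (SE 0.15, adjusted p = 0.974 by limma-trend). Hsph1 had the smallest p of the list, with 0.44 (SE 0.15, adjusted p = 0.573 by limma-trend), and Hsp90aa1, an abundant chaperone of kinases and receptors, had 0.20 (SE 0.11, adjusted p = 0.577 by limma-trend). The list's median was 0.09, and limma-trend called 0 of 10 both with and without CXCL14 replicate 1 (unadjusted p under 0.05 for 1 with it and for 3 without it).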
